A study of Mus musculus with 20 samples.

Results

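The 40 genes described here take part in DNA replication and cell division, and they were chosen by symbol from the 18754 genes listed in all 4 expression tables of the series. Of these, 18 act in licensing, starting and feeding DNA replication (replication genes) and 22 act in chromosome segregation, the mitotic kinases and cytokinesis (mitotic genes). Whole retinas of C57BL/6J mice of both sexes were profiled by RNA-Seq, with 5 libraries in each of 4 groups. In oxygen-induced retinopathy (OIR), pups were kept in 75% oxygen from P7 to P12 and returned to room air, and the retinas of *Atf6*+/+ and *Atf6*-/- mice were taken at P17, when new vessels grow into the vitreous. The *Atf6*-/- allele is a premature stop codon in exon IV and is carried by every cell of the mouse. The other experiment used P30 *Atf6*+/+ mice that were not exposed to oxygen and received 1 µL in each eye, with retinas taken after 24 h. The injection was 10 µM Ceapin-A7, a small molecule that holds ATF6 in the endoplasmic reticulum, or saline (labelled PBS). Both held a solvent that the methods call dimethyl sulfoxide and the sample labels dimethyl sulfide. The methods give different shares of the solvent for the drug and the saline injection, so drug and vehicle cannot be told apart fully. Values are FPKM, fragment counts scaled to the length of the transcript and the size of the library, and because a whole retina was measured, fewer cycling cells and less RNA per cycling cell cannot be told apart.

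Cells copy their DNA in S phase and divide in M phase, and the genes for these steps are switched on in order. The E2F family of transcription factors turns on replication genes at the end of G1. Later, in G2, the MuvB complex together with B-MYB and FOXM1 turns on mitotic genes, whose promoters often hold CHR and CCAAT elements. Licensing loads the MCM2-7 helicase on DNA with the help of CDC6 and CDT1, CDC45 and GINS make it active, PCNA clamps the polymerases to DNA, and ribonucleotide reductase, thymidylate synthase and thymidine kinase supply nucleotides. Most neurons of the mouse retina have left the cell cycle by the second week after birth, and in OIR the cells that divide at the peak of vessel growth include endothelial cells, pericytes and microglia.

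The promoters of the genes that lead each group are shown, with any matches to the elements named above marked. That of *Pcna* holds a CCAAT box and no E2F or CHR match. RefSeq sequences of 300 bases, from 250 before to 50 after the start of the gene, were matched by symbol for 32 of the 40 genes (GRCm38.p6). *Mcm4*, *Gins2*, *Ccne2*, *Aurkb*, *Ccna2*, *Kif20a*, *Tpx2* and *Foxm1* were not matched. The promoters printed are those of the gene with the highest mean FPKM and of the gene with the smallest p in OIR in each group. *Ccna2* and *Aurkb* came first among the mitotic genes, so the next in order, *Bub1b* and *Ube2c*, are given in their place. Capitals mark E2F motifs (TTTCCCGC, TTTGGCGC, TTTCGCGC or TTTGCCGC), CHR motifs (TTTGAA or TTCGAA) and CCAAT boxes (CCAAT), each on either strand, and adjoining motifs run together. Sequences read 5′ to 3′ on the strand of the gene.
Pcna (chr2:132253131-132253430, minus strand): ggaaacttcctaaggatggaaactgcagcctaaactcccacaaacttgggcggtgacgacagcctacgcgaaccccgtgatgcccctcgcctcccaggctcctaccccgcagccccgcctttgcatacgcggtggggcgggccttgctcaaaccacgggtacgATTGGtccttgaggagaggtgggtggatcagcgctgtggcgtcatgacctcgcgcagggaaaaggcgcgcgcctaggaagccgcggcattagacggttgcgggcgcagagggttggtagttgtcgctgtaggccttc
Mcm3 (chr1:20820263-20820562, minus strand): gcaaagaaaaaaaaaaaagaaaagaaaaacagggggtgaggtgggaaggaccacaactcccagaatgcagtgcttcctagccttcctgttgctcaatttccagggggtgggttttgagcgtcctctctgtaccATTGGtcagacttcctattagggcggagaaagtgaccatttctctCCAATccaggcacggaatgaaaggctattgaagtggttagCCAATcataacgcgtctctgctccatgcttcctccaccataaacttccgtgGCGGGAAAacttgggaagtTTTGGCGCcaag
Bub1b (chr2:118597961-118598260, plus strand): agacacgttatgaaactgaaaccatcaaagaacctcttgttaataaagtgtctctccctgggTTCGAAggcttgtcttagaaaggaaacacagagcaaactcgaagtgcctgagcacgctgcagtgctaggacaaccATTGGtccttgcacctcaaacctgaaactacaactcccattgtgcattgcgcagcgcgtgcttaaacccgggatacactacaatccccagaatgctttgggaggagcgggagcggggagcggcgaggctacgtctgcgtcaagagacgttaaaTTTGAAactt
Ube2c (chr2:164769679-164769978, plus strand): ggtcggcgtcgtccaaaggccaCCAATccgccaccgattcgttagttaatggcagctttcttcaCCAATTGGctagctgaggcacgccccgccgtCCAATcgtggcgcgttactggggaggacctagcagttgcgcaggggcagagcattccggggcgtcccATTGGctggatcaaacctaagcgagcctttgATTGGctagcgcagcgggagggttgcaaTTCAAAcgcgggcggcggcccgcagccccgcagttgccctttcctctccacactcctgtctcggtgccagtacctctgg

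The 2 groups of genes differed in which motifs their promoters hold. An E2F motif was found in 6 of the 16 replication promoters (37.5%), those of *Cdc6*, *Cdt1*, *Mcm3*, *Mcm5*, *Mcm6* and *Mcm7*, in 1 of the 18 mitotic promoters (5.56%), that of *Cdk1*, and in 2.27% of all 32851 promoters of the reference table. A CHR motif was present in 14 of the 18 mitotic promoters (77.8%), in 3 of the 16 replication promoters (18.8%) and in 19.2% of all promoters. The CCAAT box was found in 16 of the mitotic promoters (88.9%), 10 of the replication promoters (62.5%) and 37.4% of all. All 14 mitotic promoters with a CHR motif also held a CCAAT box, a combination seen in 7.53% of all promoters. *Mcm7* and *Prc1* have 2 promoters each in these counts. In *Ube2c*, the single CHR motif lies on the reverse strand with its first printed base 29 bases before the start, and the 6 CCAAT boxes lie 57 to 228 bases before it, and in *Mcm3* both E2F motifs begin after the start, 19 and 38 bases into the transcript. These are matches of letters, and binding was not measured.

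The tables list 19368 genes in the OIR experiment and 19102 in the P30 experiment, and depth is not given with FPKM. From the steps between low values, 1 fragment of a transcript of 1 kb was worth about 0.071 FPKM in the OIR libraries (20 genes) and 0.077 FPKM in the P30 libraries (11 genes), so that values under about 0.1 FPKM rest on few fragments. In OIR, 2 libraries stood apart from their groups. Across 12753 genes, the deviation of a library from the mean of each gene had a Spearman correlation with the GC content of the transcript of 0.380 to 0.447 in *Atf6*+/+ replicates 1, 2, 3 and 5, but of −0.358 in *Atf6*+/+ replicate 4. It was between −0.186 and −0.629 in *Atf6*-/- replicates 1 to 4, and 0.478 in *Atf6*-/- replicate 5. In the other 8 libraries this measure and the genotype cannot be told apart. The median GC content was 51.1% over all genes tested, 51.5% over the replication genes and 47.7% over the mitotic genes. *Atf6* RNA itself does not tell the genotypes apart, with 14.61 to 16.05 FPKM in the *Atf6*+/+ and 13.57 to 16.83 FPKM in the *Atf6*-/- libraries. The predicted gene *Gm29733* inside *Atf6*, chosen after its values were seen, was listed at 0 to 0.21 FPKM in the *Atf6*+/+ and 3.12 to 6.89 FPKM in the *Atf6*-/- libraries, replicates 4 and 5 included. In the P30 experiment, 11 rod photoreceptor markers summed to 18690 and 17700 FPKM in PBS replicates 4 and 5, under the 23450 to 26100 FPKM of the other 8 libraries, and lens crystallin and fibre markers, 16 in all, summed to between 12.86 and 6133 FPKM after PBS and between 149.0 and 10850 FPKM after Ceapin-A7. The rod markers, which define the retina, summed to 20660 to 24910 FPKM in the OIR libraries. The counts of genes that passed are therefore given also without *Atf6*+/+ replicate 4 and *Atf6*-/- replicate 5, or without PBS replicates 4 and 5. The levels by age, the difference between the contrasts, and the counts of the other gene lists and cell type markers were not repeated in this way. Libraries with high lens sums were not left out as a set.

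Between the P17 OIR and the P30 retinas, the mitotic genes had far lower levels at P30, while most replication genes were listed at nearly the same level. The mean FPKM in *Atf6*+/+ OIR libraries divided by that in PBS libraries had a median of 4.33 over the 22 mitotic genes and of 1.09 over the 18 replication genes, beside 1.02 over all genes. All 5 *Atf6*+/+ OIR libraries were above all 5 PBS libraries for 20 of the 22 mitotic and 6 of the 18 replication genes, and for 20.5% of all 15628 genes compared, with 19.9% of all genes in the opposite order. All 10 OIR libraries were above all 10 P30 libraries for 18 mitotic and 2 replication genes (*Mcm6* and *E2f1*), and for 13.4% of all genes. Age, oxygen and injection differ between the experiments and the tables were made separately, so these levels are given side by side with no test.

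**Figure D1:**
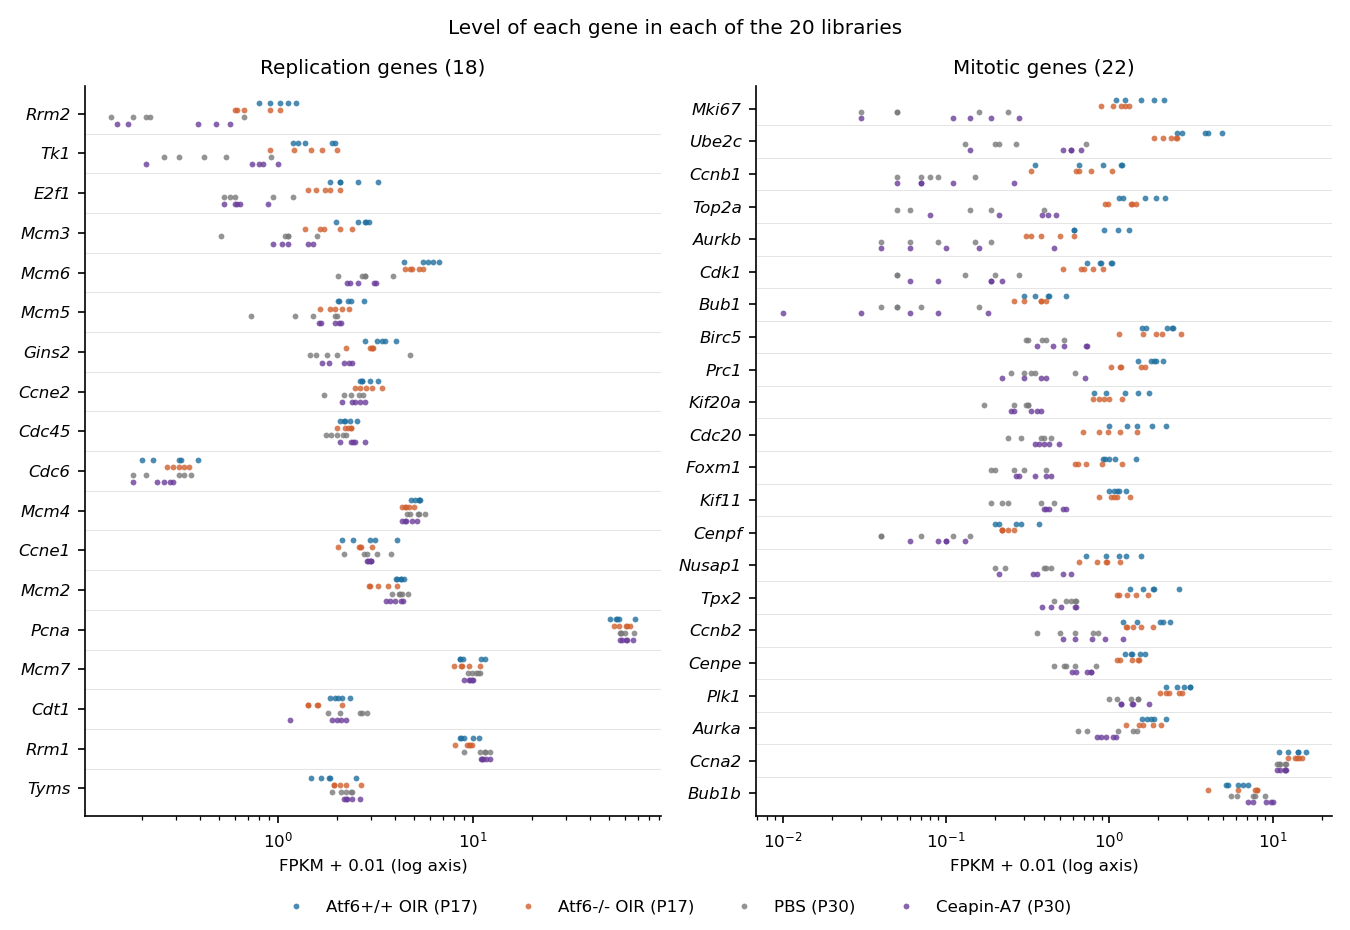
FPKM of each gene in each library (x axis, FPKM + 0.01, log axis), for replication genes (left) and mitotic genes (right), ordered from the gene with the largest ratio of *Atf6*+/+ OIR to PBS at the top. Each point is 1 library and colours give the 4 groups. For 18 of the 22 mitotic genes, the 10 P17 libraries lie to the right of the 10 P30 libraries.

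The highest ratio was that of *Mki67* (NCBI gene 17345), which encodes the proliferation antigen Ki-67, with 1.58 ± 0.436 FPKM (SD, n = 5) in *Atf6*+/+ OIR and 0.0960 ± 0.0907 FPKM (SD, n = 5) in PBS libraries, 16.4-fold apart. *Ube2c*, the E2 enzyme of the anaphase-promoting complex, followed at 12.2-fold, *Ccnb1*, the cyclin that activates CDK1 for entry into mitosis, at 10.9-fold, and *Top2a*, the topoisomerase that untangles sister chromatids, at 10.3-fold. At P30, the PBS mean was under 1 FPKM for 18 of the 22 mitotic genes. Only *Ccna2* and *Bub1b* overlapped between the *Atf6*+/+ OIR and the PBS libraries. *Aurka* and *Aurkb* also overlapped when all OIR and all P30 libraries were compared. *Ccna2*, which encodes cyclin A2 of S and G2 phase, was 13.6 ± 1.95 FPKM at P17 and 11.3 ± 0.625 FPKM at P30 (SD, n = 5 each). *Bub1b*, which encodes the spindle checkpoint kinase BUBR1, was 6.06 ± 0.821 and 7.20 ± 1.39 FPKM (SD, n = 5 each). *Ccna2* overlaps the neighbouring gene *Exosc9* in the GRCm38.p6 annotation, and whether reads were assigned by strand is not given in the sources used here, so reads of the pair cannot be told apart here. The same limit holds for *E2f1* (with *Necab3*), *Cdc20* (*Elovl1*), *Prc1* (*Rccd1*), *Foxm1* (*Tex52*), *Kif20a* (*Brd8* and *Cdc23*), *Nusap1* (*Oip5*), *Aurka* (*Cstf1*), *Gins2* (*Gse1*), *Tk1* (*Afmid*) and *Ccne2* (*Ints8*).

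Among the replication genes, *Pcna* had the highest level of all 40, at 56.5 ± 6.45 FPKM in *Atf6*+/+ OIR and 59.5 ± 4.23 FPKM in PBS libraries (SD, n = 5 each). The helicase subunits did not keep one ratio. *Mcm2*, *Mcm4* and *Mcm7* had ratios of 0.993, 1.01 and 0.950, whereas *Mcm3*, *Mcm6* and *Mcm5* had 2.42, 2.03 and 1.55. *Mcm7* overlaps *Ap4m1* and 3 microRNA genes. Ribonucleotide reductase was split in the same way. Its large subunit *Rrm1* had a ratio of 0.853, and the S-phase subunit *Rrm2* had 3.69, the highest of the replication genes. Next came *Tk1*, the thymidine kinase of S phase, with 3.18, and *E2f1*, an activating E2F, with 3.10. The 6 replication genes with no overlap were *Mcm3*, *Mcm5*, *Mcm6*, *Rrm2*, *Tk1* and *E2f1*. *Tyms*, the thymidylate synthase, had the lowest ratio, 0.846, and the rest of the group (*Cdc6*, *Cdt1*, *Cdc45*, *Gins2*, *Ccne1* and *Ccne2*) lay between 0.853 and 1.47.

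The first comparison asks whether the loss of *Atf6* goes with a lower level of cell division genes in OIR. Of the 40 genes, all of which passed the filter of a mean FPKM above 0.1, 32 were lower and 8 were higher in *Atf6*-/- than in *Atf6*+/+ OIR retinas, whereas 49.3% of all 15704 genes tested were lower and 50.7% higher. At the threshold that the study uses, an unadjusted p of 0.05 or less, 11 genes passed, each of them lower, while 5.81% of all genes passed as lower, 6.94% as higher and 12.7% in either direction. These were *Mcm2*, *Mcm3*, *Cdt1*, *Rrm2* and *E2f1* of the replication genes and *Mki67*, *Aurkb*, *Cdc20*, *Tpx2*, *Ube2c* and *Prc1* of the mitotic genes. No gene of the 40 passed an adjusted p under 0.05 (limma with Benjamini-Hochberg adjustment over all genes), which 0.0318% of all genes did, and the lowest adjusted p among the 40 was 0.358. The median log2 fold change was −0.26 over the mitotic genes, of which 20 were lower, and −0.14 over the replication genes, of which 12 were lower, beside 0.0028 over all genes. With a pseudocount of 1 in place of 0.1, the medians were −0.14 and −0.12. The 11 genes passed there too, with smaller fold changes for the low ones, such as −0.41 for *Aurkb*, −0.19 for *Rrm2*, −0.25 for *Mki67*, −0.32 for *Cdc20*, −0.27 for *Tpx2* and −0.29 for *Prc1*. Fold changes here and below are on the scale of log2(FPKM + 0.1) after rescaling between libraries, which understates the change of low genes.

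The count rested on single libraries. Of the 11, *Mcm2*, *Mcm3*, *Aurkb*, *Ube2c* and *Prc1* passed with any 1 library left out, and the other 6 were lost in between 4 and 8 of the 10 such fits. The number passing was 7 without *Atf6*+/+ replicate 2, 5 without *Atf6*+/+ replicate 3, 6 without *Atf6*-/- replicate 1 and 5 without *Atf6*-/- replicate 4. In the same order, 1452, 1431, 1346 and 1092 of all genes passed in these fits. When *Atf6*+/+ replicate 4 and *Atf6*-/- replicate 5 were both left out, which was chosen after seeing the data, 11 passed, 9 of them lower and 8 of them among the first 11. There, 6099 of all 15714 genes passed, a larger share than of the 40, and 3210 of these were lower. In that fit 8 of the 40 had an adjusted p under 0.05, but so did 3909 of all 15714 genes, 28 of the 40 were lower instead of 32, and the mitotic median was −0.22. After removal of the trend with GC content in each library, 11 passed, 8 of them among the first 11, beside 1691 of all 15704 genes. *Cdt1* (log2 fold change −0.19 instead of −0.31), *E2f1* and *Cdc20* no longer passed, *Mcm4*, *Top2a* and *Cdk1* did, 36 of the 40 were lower, and the mitotic median was −0.33. With the FPKM as deposited, 34 of the 40 were lower and 12 passed, but 69.5% of all genes that passed were then lower, as were 69.0% after rescaling to the same sum (TPM), against 45.6% here.

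**Figure D2:**
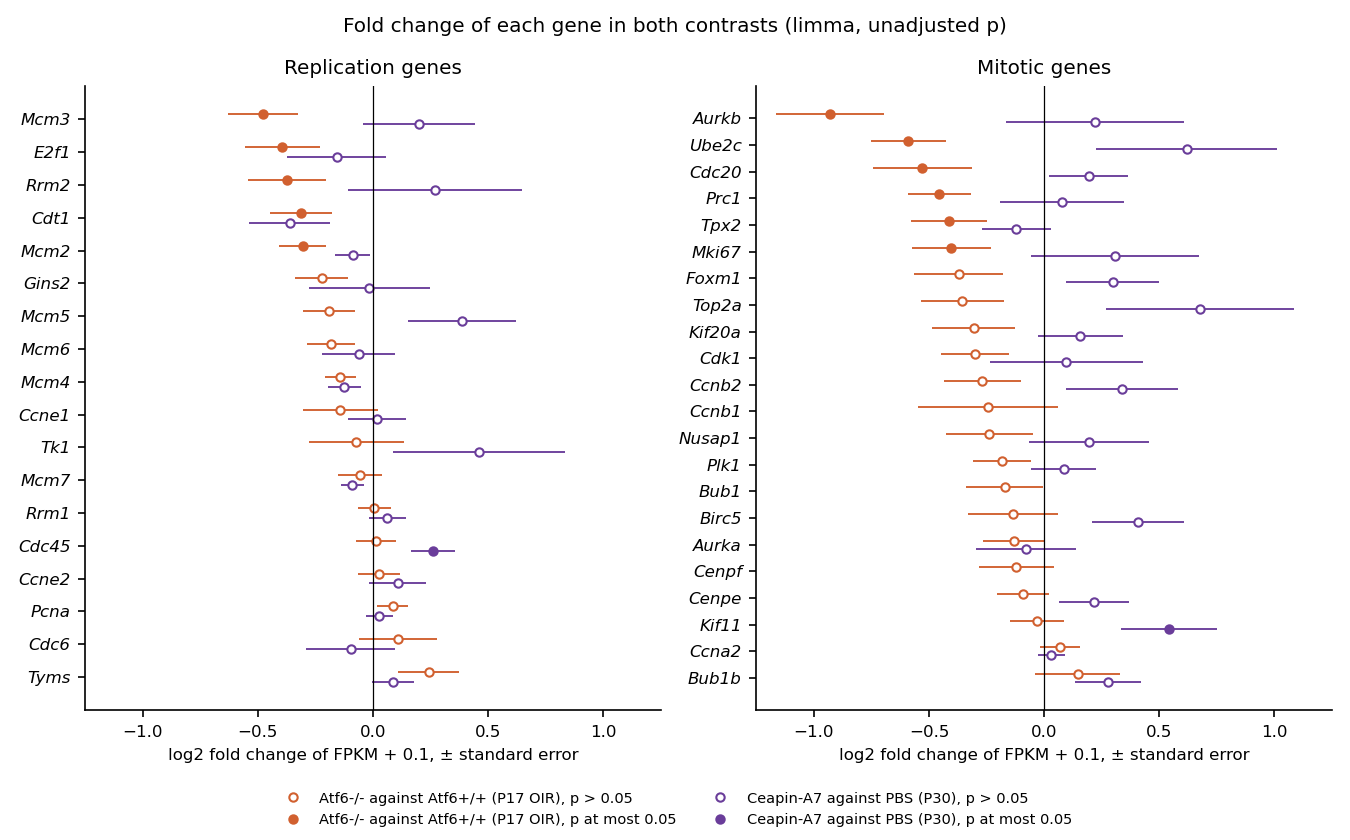
The log2 fold change of each gene (x axis, points) with its standard error (bars) in *Atf6*-/- against *Atf6*+/+ OIR retinas and in Ceapin-A7 against PBS retinas, for replication genes (left) and mitotic genes (right), with filled points where the unadjusted p is 0.05 or less. In OIR, 20 of 22 mitotic points lie left of 0, from −0.93 for *Aurkb*, and after Ceapin-A7, 17 of the 19 mitotic genes tested lie right of it. *Ccnb1*, *Bub1* and *Cenpf* were too low to be tested at P30.

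Of the helicase subunits, *Mcm2* (NCBI gene 17216) was 4.26, 4.28, 4.42, 4.05 and 4.03 FPKM in *Atf6*+/+ replicates 1 to 5 and 2.95, 4.09, 3.23, 2.93 and 3.64 FPKM in *Atf6*-/- replicates 1 to 5. *Atf6*-/- replicate 2 lay within the narrow *Atf6*+/+ range and the other 4 lay below it, a log2 fold change of −0.31 (standard error 0.10, p = 0.0103 from limma, exact two-sided permutation p = 0.0159). *Mcm3* (NCBI gene 17215) was 2.78, 2.81, 2.91, 2.56 and 1.98 FPKM in the *Atf6*+/+ and 1.37, 2.38, 1.72, 1.63 and 2.08 FPKM in the *Atf6*-/- libraries. Only *Atf6*+/+ replicate 5 fell among the *Atf6*-/- values, and the log2 fold change was −0.48 (standard error 0.15, p = 0.00802 from limma, exact permutation p = 0.0318). *Mcm4* (NCBI gene 17217) had 5.34, 5.28, 5.01, 5.26 and 4.81 FPKM and 4.51, 4.98, 4.47, 4.67 and 4.34 FPKM in the same order. Its groups did not overlap after rescaling, which held for no other gene of the 40 and for 0.694% of all genes as lower, but the deposited FPKM did overlap, and its log2 fold change of −0.14 missed the threshold (p = 0.0526 from limma, exact permutation p = 0.00794, the smallest that 5 against 5 libraries can give).

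The remaining helicase subunits overlapped between the genotypes. *Mcm5* was 2.03, 2.35, 2.74, 2.29 and 2.04 FPKM in the *Atf6*+/+ and 1.64, 2.31, 1.83, 1.95 and 2.12 FPKM in the *Atf6*-/- libraries, with a log2 fold change of −0.19 (p = 0.120 from limma, exact permutation p = 0.119). For *Mcm6*, *Atf6*+/+ libraries had 6.68, 5.53, 6.24, 5.87 and 4.44 FPKM and *Atf6*-/- libraries 4.47, 5.51, 5.25, 4.83 and 4.74 FPKM, a log2 fold change of −0.18 (p = 0.102 from limma, exact permutation p = 0.135). *Mcm7* was listed at 8.59, 8.52, 11, 11.52 and 8.9 FPKM and 8.81, 10.87, 8.66, 9.53 and 8.03 FPKM, with a log2 fold change of −0.058 (p = 0.556 from limma, exact permutation p = 0.587). All 6 subunits were thus lower on average, and 2 of the 6 passed the unadjusted threshold. The licensing factor *Cdt1* (NCBI gene 67177), which brings the helicase to origins, was 2.34, 1.96, 2.11, 1.83 and 2.03 FPKM in the *Atf6*+/+ and 1.42, 1.59, 1.57, 1.42 and 2.13 FPKM in the *Atf6*-/- libraries. *Atf6*-/- replicate 5 lay within the *Atf6*+/+ range and the other 4 below all *Atf6*+/+ libraries, and the log2 fold change was −0.31 (p = 0.0371 from limma, exact permutation p = 0.0556). *Cdc6*, its partner in licensing, had a log2 fold change of 0.11 and *Gins2* one of −0.22, and neither passed. *Cdc45* was 2.33, 2.06, 2.19, 2.52 and 2.17 FPKM in the *Atf6*+/+ and 2.29, 2.37, 2.01, 2.36 and 2.2 FPKM in the *Atf6*-/- libraries, with overlap throughout and a log2 fold change of 0.013.

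Of the genes for nucleotide supply, *Rrm2* (NCBI gene 20135) was 0.79, 1.12, 1.23, 1.02 and 0.9 FPKM in the *Atf6*+/+ and 0.61, 1.02, 0.59, 0.66 and 0.9 FPKM in the *Atf6*-/- libraries. Replicates 1, 3 and 4 of *Atf6*-/- lay below every *Atf6*+/+ library and the other 2 within their range (log2 fold change −0.37, p = 0.0474 from limma, exact permutation p = 0.0794). *Tyms* went the other way, with a log2 fold change of 0.24 (p = 0.0910 from limma, exact permutation p = 0.111), *Rrm1* had 0.0057 and *Tk1* −0.072. The clamp *Pcna* (NCBI gene 18538) was 54.9, 50.46, 55.84, 67.48 and 53.94 FPKM in the *Atf6*+/+ and 55.82, 63.94, 61.9, 60.64 and 53.12 FPKM in the *Atf6*-/- libraries, with a log2 fold change of 0.085 (p = 0.235 from limma, exact permutation p = 0.262), and its groups overlapped. *E2f1* (NCBI gene 13555) was 3.25, 2.06, 2.56, 2.06 and 1.83 FPKM in the *Atf6*+/+ and 1.74, 1.55, 1.83, 1.42 and 2.07 FPKM in the *Atf6*-/- libraries. *Atf6*+/+ replicate 1 was the highest, and 3 of the *Atf6*-/- libraries lay below all *Atf6*+/+ libraries (log2 fold change −0.39, p = 0.0329 from limma, exact permutation p = 0.0635). The cyclins of the G1 to S transition, *Ccne1* and *Ccne2*, had log2 fold changes of −0.14 and 0.025, and neither passed.

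Among the mitotic kinases, *Aurkb* (NCBI gene 20877), the kinase of the chromosomal passenger complex, had the largest fold change of the 40 genes. It was 0.6, 1.12, 1.31, 0.6 and 0.92 FPKM in the *Atf6*+/+ and 0.32, 0.6, 0.37, 0.3 and 0.49 FPKM in the *Atf6*-/- libraries. The groups touched at 0.6 FPKM, where 2 *Atf6*+/+ libraries and the highest *Atf6*-/- library lay, and the log2 fold change was −0.93 (standard error 0.24, p = 0.00190 from limma, exact permutation p = 0.0159). Its passenger partner *Birc5*, survivin, had a log2 fold change of −0.13, and the kinases *Aurka* and *Plk1* had −0.13 and −0.18, all without passing. *Cdk1* (NCBI gene 12534), the kinase that drives entry into mitosis, was 0.87, 1.01, 0.88, 1.03 and 0.72 FPKM in the *Atf6*+/+ and 0.51, 0.9, 0.79, 0.66 and 0.69 FPKM in the *Atf6*-/- libraries, and 3 of the latter were under the lowest *Atf6*+/+ value (log2 fold change −0.30, p = 0.0632 from limma, exact permutation p = 0.0556). Its cyclin *Ccnb1* (NCBI gene 268697) was 0.34, 0.91, 1.17, 1.18 and 0.64 FPKM and 0.64, 1.03, 0.76, 0.62 and 0.32 FPKM, with wide overlap and a log2 fold change of −0.24 (exact permutation p = 0.5). *Ccnb2* had −0.27 and *Ccna2* 0.069.

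The anaphase-promoting complex marks cyclin B and securin for destruction. Its enzyme *Ube2c* (NCBI gene 68612) was 2.78, 4.86, 3.99, 3.87 and 2.6 FPKM in the *Atf6*+/+ and 1.87, 2.58, 2.11, 2.38 and 2.54 FPKM in the *Atf6*-/- libraries. Every *Atf6*-/- library lay below the lowest *Atf6*+/+ library in the deposited values, and the log2 fold change was −0.59 (standard error 0.16, p = 0.00328 from limma, exact permutation p = 0.0159). After rescaling, the groups overlapped. The activator of the complex, *Cdc20* (NCBI gene 107995), was 0.99, 1.81, 2.23, 1.47 and 1.27 FPKM and 0.68, 1.47, 1.15, 0.97 and 0.86 FPKM, and *Atf6*-/- replicate 2 was as high as *Atf6*+/+ replicate 4 (log2 fold change −0.53, p = 0.0301 from limma, exact permutation p = 0.0714). Of the spindle checkpoint kinases that hold the complex back, *Bub1* had a log2 fold change of −0.17 and *Bub1b* one of 0.14.

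Among spindle genes, *Prc1* (NCBI gene 233406), which bundles the microtubules of the central spindle, was 1.8, 1.86, 1.93, 2.12 and 1.48 FPKM in the *Atf6*+/+ and 1.02, 1.16, 1.64, 1.55 and 1.17 FPKM in the *Atf6*-/- libraries. *Atf6*+/+ replicate 5 lay below 2 of the *Atf6*-/- libraries and the other 4 above all of them (log2 fold change −0.46, standard error 0.14, p = 0.00590 from limma, exact permutation p = 0.0238). *Tpx2* (NCBI gene 72119), which activates AURKA on the spindle, was 1.59, 1.84, 2.65, 1.86 and 1.33 FPKM and 1.1, 1.71, 1.45, 1.27 and 1.14 FPKM, and 3 *Atf6*-/- libraries were below the lowest *Atf6*+/+ library (log2 fold change −0.41, p = 0.0275 from limma, exact permutation p = 0.0397). The motors and microtubule binders *Kif20a*, *Nusap1*, *Cenpe*, *Cenpf* and *Kif11* had log2 fold changes between −0.31 (*Kif20a*) and −0.031 (*Kif11*), and none passed. *Kif11* was 0.99, 1.25, 1.1, 1.14 and 1.06 FPKM in the *Atf6*+/+ and 1.06, 1.02, 1.11, 1.33 and 0.86 FPKM in the *Atf6*-/- libraries, and its groups overlapped. *Mki67* was 1.09, 2.15, 1.86, 1.55 and 1.24 FPKM in the *Atf6*+/+ and 0.88, 1.24, 1.31, 1.17 and 1.05 FPKM in the *Atf6*-/- libraries. The 3 highest values, over 1.5 FPKM, were all *Atf6*+/+ libraries, and the other 2 of that group lay among the *Atf6*-/- values (log2 fold change −0.40, p = 0.0366 from limma, exact permutation p = 0.0794). *Top2a* (NCBI gene 21973) was 1.14, 1.92, 2.19, 1.65 and 1.21 FPKM and 0.93, 1.45, 1.36, 1.35 and 0.97 FPKM (log2 fold change −0.36, p = 0.0728 from limma, exact permutation p = 0.111), with the same 3 *Atf6*+/+ libraries on top. *Foxm1*, the factor that turns on many mitotic genes, had a log2 fold change of −0.37 (p = 0.0772 from limma, exact permutation p = 0.103).

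**Figure D3:**
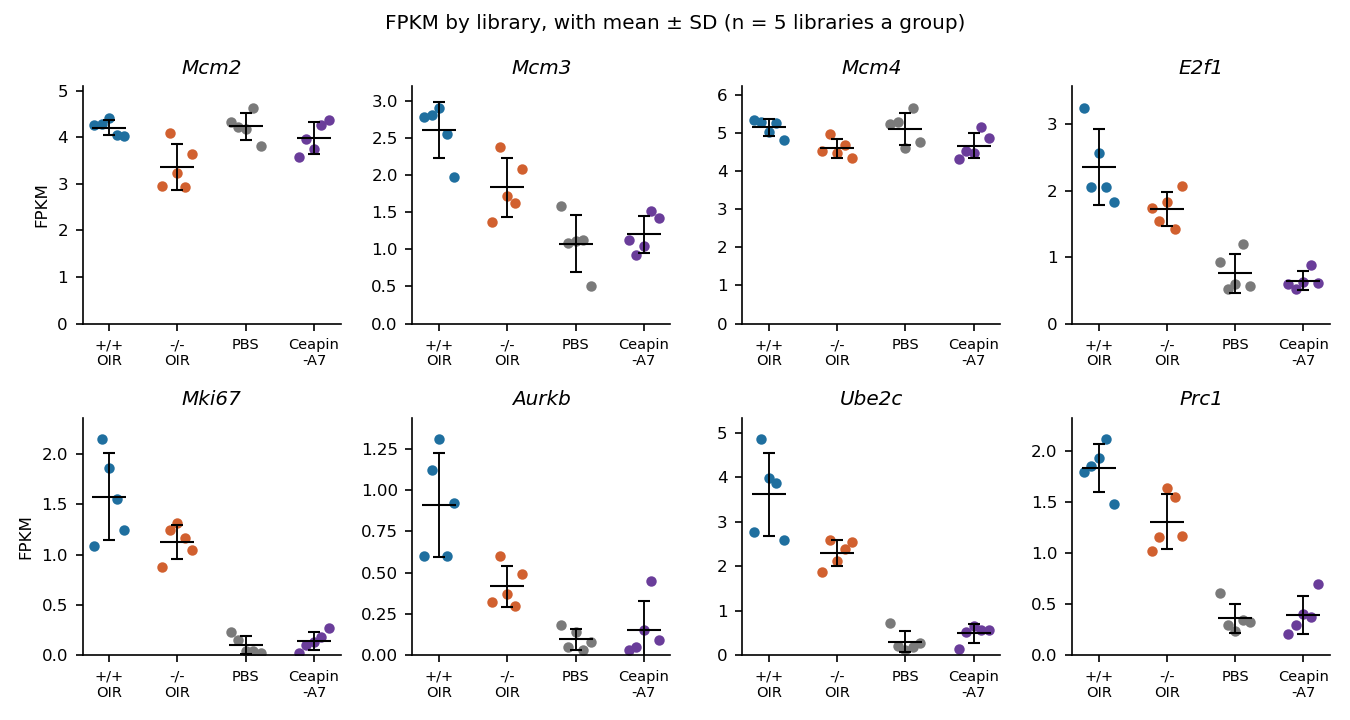
FPKM of 8 genes by group (y axis, from 0), with 1 point for each library in order of replicate and the mean ± SD (bars, n = 5). *Ube2c* was 2.6 FPKM or more in all *Atf6*+/+ and 2.58 FPKM or less in all *Atf6*-/- OIR libraries, and *Mki67*, *Aurkb*, *Ube2c* and *Prc1* have their lowest values at P30, where *Mcm2* and *Mcm4* overlap with P17.

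Libraries of 1 genotype also differed from each other in the mitotic genes. The median deviation of the mitotic genes from their means over the 10 OIR libraries, on the log2 scale, was 0.38, 0.29 and 0.18 in *Atf6*+/+ replicates 3, 2 and 4, but −0.078 and −0.17 in replicates 5 and 1. The *Atf6*-/- libraries lay at 0.057, −0.045, −0.17, −0.20 and −0.35 in replicates 2, 3, 4, 5 and 1. The groups thus overlapped, with 3 *Atf6*+/+ libraries above every *Atf6*-/- library. *Atf6*+/+ replicate 3 held the highest value of 9 of the 22 mitotic genes and *Atf6*-/- replicate 1 the lowest value of 11. The replication genes spread less, from −0.13 to 0.19.

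**Figure D4:**
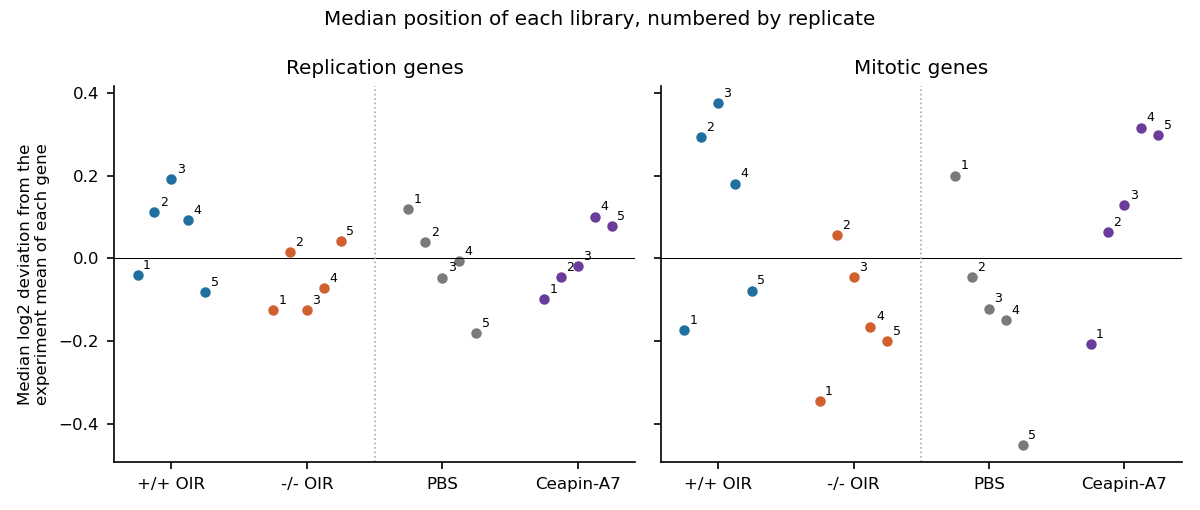
Median over the replication genes (left) or mitotic genes (right) of the log2 deviation from the mean of each gene over its experiment (y axis), with 1 point for each library, numbered by replicate. *Atf6*+/+ replicates 2, 3 and 4 lie above all *Atf6*-/- libraries for the mitotic genes, and PBS replicate 5, at −0.45, lies below all other P30 libraries. The dotted line parts the experiments, whose values are not on a common scale.

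Further genes of the same processes were set beside these. Of 44 other mitotic genes, 36 were lower in *Atf6*-/- OIR retinas, 9 passed the unadjusted threshold, each lower, and the median log2 fold change was −0.18. Of all genes, 49.3% were lower and 5.81% passed as lower. *Cenpa*, the histone H3 variant of centromeres, had a log2 fold change of −0.40, *Cdca8*, borealin, which belongs to the complex of *Aurkb* and *Birc5*, had −0.50, and *Kif2c*, a kinesin that depolymerises microtubules, had −0.65. Of 29 other replication genes tested, 17 were lower, with a median of −0.0063, and 1 passed. This was *Timeless*, a fork protection factor, with a log2 fold change of −0.40 and no overlap between the groups, as held for 0.694% of all genes as lower. None of these further genes had an adjusted p under 0.05 (limma), with a lowest value of 0.358 among the mitotic genes.

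Markers of cell types that can divide in OIR, and of tissue beside the retina, were compared in the same fit, in which 5.81% of all genes passed as lower and 6.94% as higher. No marker of these lists had an adjusted p under 0.05 (limma), and the lowest was 0.302. Of 15 endothelial markers, 14 were lower and 6 passed, with summed levels of 173.3 to 253.4 FPKM in the *Atf6*+/+ and 148.0 to 200 FPKM in the *Atf6*-/- libraries. Mural cell markers were lower in 10 of 10 cases, 5 of which passed, with sums of 106.1 to 157.5 and 85.89 to 111.0 FPKM. For microglia and macrophages, 11 of 12 were lower and 2 passed, with sums of 101.2 to 146.4 and 86.67 to 118.9 FPKM. Lens markers were lower in 14 of 15 cases, 13 of which passed, with sums of 10.19 to 911.2 FPKM in the *Atf6*+/+ and 6.25 to 10.24 FPKM in the *Atf6*-/- libraries. Within the *Atf6*+/+ group, the lens sum was 21.52, 210.6, 10.19, 33.12 and 911.2 FPKM in replicates 1 to 5. Markers of the pigment epithelium were higher in 10 of 11 cases, 5 of which passed, and those of retinal progenitors had 5 of 11 lower and a median of 0.0050. The part of any of these in the levels of the cell division genes was not tested.

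The other comparison asks the same of 24 h of Ceapin-A7 in the P30 retina. Of the 40 genes, 37 passed the filter (*Ccnb1*, *Bub1* and *Cenpf* did not), and 27 of these were higher and 10 lower after Ceapin-A7 than after PBS, whereas 50.3% of all 15408 genes tested were higher and 49.7% lower. The unadjusted threshold was passed by 2 genes, both higher, the helicase cofactor *Cdc45* and the spindle motor *Kif11*, while 5.04% of all genes passed as higher, 5.31% as lower and 10.4% in either direction. No gene of the 40 and none of all genes (0%) had an adjusted p under 0.05 (limma), and the lowest adjusted p among the 37 was 0.472. Over the mitotic genes tested, the median log2 fold change was 0.22, with 17 higher and 2 lower (*Aurka* and *Tpx2*). It was 0.063 with a pseudocount of 1 and 0.058 over the genes with a mean FPKM above 1. The filter takes the mean over both groups. *Mki67* and *Aurkb*, each at 0.096 FPKM on average after PBS, passed it through their higher Ceapin-A7 values. With no filter, 3 of the 22 mitotic genes were lower and the median was 0.19. Over the replication genes the median was 0.022, with 10 higher and 8 lower. Without Ceapin-A7 replicate 5, no gene of the 40 passed, and 5 did without PBS replicate 1 or Ceapin-A7 replicate 1, and 4 without Ceapin-A7 replicate 3. In the same order, 1248, 1590, 1324 and 1209 of all genes passed in these fits. Without PBS replicates 4 and 5 together, chosen after seeing the data, 2 passed, beside 769 of all 15378 genes. There, 17 of the 37 were lower, and the mitotic median was 0.088. With every library kept, 51.3% of all genes that passed were lower, against 73.2% after rescaling to TPM. With TPM, the median of all genes was −0.037, 24 of the 37 were higher and 3 passed, 1 of them lower, beside 1699 of all genes.

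*Cdc45* (NCBI gene 12544) was 1.86, 1.76, 2.23, 2.01 and 2.14 FPKM in PBS replicates 1 to 5 and 2.47, 2.41, 2.07, 2.37 and 2.77 FPKM in Ceapin-A7 replicates 1 to 5. Ceapin-A7 replicate 3 lay within the PBS range and the other 4 above it (log2 fold change 0.26, standard error 0.095, p = 0.0185 from limma, exact permutation p = 0.0238). *Cdc45* overlaps *Ufd1* in the annotation. *Kif11* (NCBI gene 16551) was 0.45, 0.37, 0.21, 0.23 and 0.18 FPKM in the PBS and 0.42, 0.39, 0.4, 0.51 and 0.53 FPKM in the Ceapin-A7 libraries, and 4 PBS libraries lay below all Ceapin-A7 libraries (log2 fold change 0.54, standard error 0.21, p = 0.0238 from limma, exact permutation p = 0.0556). With a pseudocount of 1 the log2 fold change of *Kif11* was 0.17. *Kif11* has 2 pseudogenes within its bounds.

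The levels of the other mitotic genes at P30 were low and scattered. *Mki67* was 0.23, 0.15, 0.04, 0.04 and 0.02 FPKM after PBS and 0.02, 0.1, 0.13, 0.18 and 0.27 FPKM after Ceapin-A7. *Top2a* was 0.39, 0.18, 0.05, 0.13 and 0.04 and 0.07, 0.2, 0.46, 0.41 and 0.38 FPKM, with log2 fold changes of 0.68 for *Top2a* and 0.31 for *Mki67* (p = 0.126 and 0.419 from limma, exact permutation p = 0.159 and 0.444). In both genes PBS replicate 1 was the highest PBS library and Ceapin-A7 replicate 1 the lowest Ceapin-A7 library. *Ube2c* showed this order most plainly, with 0.71, 0.2, 0.12, 0.19 and 0.26 FPKM after PBS and 0.13, 0.51, 0.66, 0.57 and 0.57 FPKM after Ceapin-A7 (log2 fold change 0.62, p = 0.142 from limma, exact permutation p = 0.198). *Cdk1* was 0.27, 0.19, 0.12, 0.04 and 0.04 and 0.05, 0.08, 0.18, 0.18 and 0.21 FPKM, and *Ccnb1* 0.14, 0.07, 0.06, 0.04 and 0.08 and 0.04, 0.06, 0.06, 0.1 and 0.25 FPKM, the latter under the filter. *Aurkb* was 0.18, 0.05, 0.14, 0.03 and 0.08 FPKM and 0.03, 0.05, 0.15, 0.45 and 0.09 FPKM, and 1 Ceapin-A7 library stood above the other 9 P30 libraries. For these genes the groups overlapped throughout.

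*Cdc20* was 0.43, 0.39, 0.28, 0.37 and 0.23 FPKM after PBS and 0.48, 0.39, 0.34, 0.42 and 0.36 FPKM after Ceapin-A7, *Tpx2* 0.53, 0.45, 0.62, 0.57 and 0.61 and 0.38, 0.61, 0.43, 0.5 and 0.62 FPKM, and *Prc1* 0.61, 0.29, 0.24, 0.34 and 0.32 and 0.21, 0.29, 0.4, 0.37 and 0.7 FPKM. PBS replicate 5 held the lowest value of 10 of the 19 mitotic genes tested and had a median deviation of −0.45, and Ceapin-A7 replicate 1 had −0.21, the next lowest. All 11 rod markers and all 16 lens markers were higher after Ceapin-A7, of which 1 rod and 0 lens markers passed. Of all genes, 5.04% passed as higher and 5.31% as lower. Of 15 endothelial markers, 8 were lower and 7 higher, with sums of 101.6 to 121.7 FPKM after PBS and 94.85 to 110.1 FPKM after Ceapin-A7. Mural markers were higher in 8 of 10 cases, 1 of which passed, with sums of 30.91 to 43.19 FPKM after PBS and 35.96 to 86.45 FPKM after Ceapin-A7. Of 12 markers of the pigment epithelium, 4 passed as higher and 2 as lower, with sums of 136.9 to 304.8 and 125.7 to 453.6 FPKM. The microglia and macrophage markers, 7 of 12 higher with 1 passing, summed to 64.95, 50.54, 58.47, 53.75 and 55.86 FPKM in PBS replicates 1 to 5 and to 50.06, 56.63, 71.82, 68.36 and 71.86 FPKM in Ceapin-A7 replicates 1 to 5. In the same order, the median deviations of the mitotic genes were 0.20, −0.046, −0.12, −0.15 and −0.45 after PBS and −0.21, 0.064, 0.13, 0.32 and 0.30 after Ceapin-A7. The sums were highest in Ceapin-A7 replicates 3 to 5 and lowest in Ceapin-A7 replicate 1, whereas the deviation was lowest in PBS replicate 5. The part of these cell types in the mitotic levels was not tested.

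The replication genes at P30 differed little between the groups. *Mcm2* was 4.33, 4.22, 4.18, 4.64 and 3.82 FPKM after PBS and 3.58, 3.96, 3.74, 4.26 and 4.38 FPKM after Ceapin-A7, *Mcm3* 1.58, 1.08, 1.11, 1.12 and 0.5 and 1.12, 0.93, 1.04, 1.51 and 1.42 FPKM, and *Mcm4* 5.22, 5.27, 4.59, 5.66 and 4.75 and 4.32, 4.51, 4.48, 5.15 and 4.85 FPKM. The log2 fold changes were −0.088, 0.20 and −0.12. *Mcm5* was 2.01, 1.51, 1.95, 1.22 and 0.72 and 1.62, 1.65, 2.05, 1.94 and 2.09 FPKM, *Mcm6* 3.88, 2.78, 2.7, 2.79 and 2.03 and 2.24, 2.33, 2.56, 3.18 and 3.11 FPKM, and *Mcm7* 10.34, 9.47, 10.88, 10.54 and 9.87 and 8.97, 9.5, 9.62, 9.84 and 10.01 FPKM. Of the 6 helicase subunits, 4 were lower and 2, *Mcm3* and *Mcm5*, higher after Ceapin-A7, and none passed. *Pcna* stayed close, with 57.12, 66.56, 56.42, 60.37 and 57.09 FPKM after PBS and 56.45, 57.87, 65.99, 61.6 and 61.15 FPKM after Ceapin-A7 (log2 fold change 0.027, p = 0.646 from limma, exact permutation p = 0.635). *E2f1* was 0.93, 0.52, 0.59, 1.19 and 0.56 and 0.59, 0.52, 0.63, 0.88 and 0.61 FPKM, *Rrm2* 0.66, 0.21, 0.17, 0.2 and 0.13 and 0.14, 0.16, 0.47, 0.38 and 0.56 FPKM, and *Cdt1* 2.7, 2.06, 1.8, 2.84 and 2.64 and 1.14, 2, 2.09, 2.23 and 1.88 FPKM. Among the replication genes, the largest log2 fold change upwards was that of *Tk1*, 0.46, and the largest downwards that of *Cdt1*, −0.36, and neither passed. Of 37 further mitotic genes tested, 23 were higher and 5 passed, each higher (median 0.096). Of all genes, 50.3% were higher and 5.04% passed as higher. The further genes that passed included *Smc2*, a condensin subunit, at 0.38, *Cks1b*, a CDK subunit, at 0.36, and *Kif4*, a chromosome kinesin, at 0.63. Of 28 further replication genes, 14 were higher and 14 lower, and the 2 that passed, *Timeless* (−0.24) and *Pola2* (−0.31), a subunit of the primase complex, were lower. Of all genes, 5.31% passed as lower.

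Whether the 2 contrasts differ was tested directly in a fit of all 20 libraries. The contrast of *Atf6*-/- with *Atf6*+/+ in OIR minus that of Ceapin-A7 with PBS was below 0 for 34 of the 40 genes and for 50.3% of all 15628 genes. An unadjusted p of 0.05 or less was reached by 8 of the 40 and by 9.19% of all genes. These were *Mcm3*, *Mcm5*, *Top2a*, *Aurkb*, *Cdc20*, *Kif11*, *Ube2c* and *Foxm1*, all lower in the OIR contrast. The largest differences were those of *Ube2c* (−1.21, standard error 0.44, adjusted p = 0.462 from limma), *Aurkb* (−1.15, standard error 0.46, adjusted p = 0.490 from limma) and *Top2a* (−1.03, standard error 0.46, adjusted p = 0.522 from limma). No gene of the 40 had an adjusted p under 0.05, the lowest being 0.462, and 0.032% of all genes did. The contrasts differ in age, oxygen, route and duration of ATF6 loss at once.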

How the data were processed

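Whole-retina RNA was measured in 20 libraries, 5 per group, with groups and replicate numbers taken from the sample labels. The authors made stranded mRNA libraries, sequenced them on the DNBSEQ platform as paired ends of 100 bp, aligned them to GRCm39 with HISAT2 (2.0.4), estimated expression with RSEM (1.2.18) and deposited FPKM per gene to 2 decimals; they ran their own tests with DESeq2 (1.4.5) on counts that are not used here. Because the deposited values are FPKM, no count model was fitted and depth is unknown apart from the steps between low values.

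Each experiment was fitted on its own 10 libraries over all genes with a mean FPKM above 0.1. Libraries were brought to one scale with median-of-ratios factors, and log2(FPKM + 0.1) was compared with limma (3.58.1, eBayes with trend) in R (4.3.3), with Benjamini-Hochberg adjustment over all genes tested. A gene "passed" at an unadjusted p of 0.05 or less, the threshold of the study. For single genes an exact permutation test (two-sided, 252 arrangements) was added, whose smallest p is 0.00794. No source says that the libraries of a group came from separate animals in every case, so p-values measure the spread between these libraries. The fits were tested on simulated data, where 93.5% of 200 genes changed 2-fold were recovered in OIR (15678 genes) and 97.0% in the P30 experiment (15375 genes). The changed genes all had a mean FPKM above 1, so recovery of lower genes was not tested.

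The 40 genes, the further lists, the motifs and the tests were chosen with earlier results of these data known. Values in every library are given for genes that passed in either experiment and for *Mki67*, *Top2a*, *Cdk1*, *Ccnb1*, *Pcna*, *Mcm2* to *Mcm7* and *E2f1*. Of the further lists, the 3 genes with the smallest p in an experiment may be named. In *Atf6*-/- OIR retinas, 4 of 5 astrocyte markers were lower with 0 passing, 4 of 9 Muller glia markers were lower with 1 passing as higher, and 5 of 5 erythroid markers tested were lower with 0 passing. After Ceapin-A7, 3 of 5 astrocyte markers were lower with 1 passing as lower, 3 of 9 Muller glia markers were lower with 1 passing as lower and 2 as higher, and 4 of 5 erythroid markers were lower with 0 passing. Of all genes, 12.7% passed in OIR and 10.4% after Ceapin-A7, in either direction. Alternatives were pseudocounts of 1 and 0.01, 3 other filters, 3 other scalings, limma without trend or with array weights, the 4 groups fitted together, a replicate block, a correction for transcript GC content and leaving out each library. Leaving out 2 libraries together was added after seeing the data. Promoters come from RefSeq (GRCm38.p6), and overlaps between genes were read from the same annotation.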

Additional observations from a re-analysis of the deposited data

Results flagged for a closer look

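In 160 groups of 5 libraries (40 genes in 4 groups), the highest or lowest library stood apart from the other 4 in 10 (6.25%) by Dixon's ratio of the gap to the whole range, with a critical value of 0.71; chance flags about 1 in 20 groups. In the OIR libraries, *Cdt1* was 2.13 FPKM in *Atf6*-/- replicate 5, against 1.42 to 1.59 FPKM in the others, and *Gins2* was 2.23 FPKM in *Atf6*-/- replicate 1, against 2.94 to 3.06 FPKM. *Atf6*-/- replicate 5 is the library whose deviations ran with GC content as in 4 of the *Atf6*+/+ libraries.

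PBS replicate 1 was the high library for 4 of these 10, with *Rrm2* at 0.66 FPKM (others 0.13 to 0.21), *Ube2c* at 0.71 FPKM (0.12 to 0.26), *Prc1* at 0.61 FPKM (0.24 to 0.34) and *Bub1* at 0.15 FPKM (0.03 to 0.06). *Gins2* was 4.75 FPKM in PBS replicate 4, against 1.45 to 2.0 FPKM in the other PBS libraries. After Ceapin-A7, *Aurkb* was 0.45 FPKM in replicate 4 (others 0.03 to 0.15), *Ccnb1* was 0.25 FPKM in replicate 5 (0.04 to 0.1), and *Ube2c* was 0.13 FPKM in replicate 1 (0.51 to 0.66). The causes were not tested.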

How the results depend on the processing

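FPKM and whole retinas limit what can be seen. At P30, 18 of the 22 mitotic genes had a PBS mean under 1 FPKM. The simulation changed only genes with a mean FPKM above 1, by 2-fold, so smaller changes and lower genes were not tested. The number of the 40 genes that passed in OIR was 17 with array weights (*Pcna* and *Tyms* among them as higher), which left 7 with an adjusted p under 0.05 (2769 of all genes), and 5 to 13 with 1 library left out. It was 8 after quantile normalization, which ended the calls of *Cdt1*, *Rrm2* and *Mki67*, and 8 in the fit of all 20 libraries, 7 of them lower and 6 shared, which ended those of *Cdt1*, *Rrm2*, *E2f1*, *Mki67* and *Ube2c*. Beside these, 5749 of all 15704 genes passed with array weights, 2028 after quantile normalization and 2729 of 15628 in the fit of all 20 libraries. Without *Atf6*+/+ replicate 4 and *Atf6*-/- replicate 5 together, 8 had an adjusted p under 0.05. After Ceapin-A7 the number of the 40 that passed was 1 with a mean FPKM above 1, 4 with array weights, 1 with GC correction and the replicate block, and 0 to 5 with 1 library left out. Beside these, 1417 of all genes passed with a mean FPKM above 1, 1493 with array weights and 1671 with GC correction and the replicate block. The replicate number did not pair the libraries (correlations of same-numbered deviations −0.26 to 0.31), and as a block it left 11 passing in OIR, 10 of them shared, and 2 after Ceapin-A7. Over all genes, 2002 passed in OIR and 5 had an adjusted p under 0.05; 5749 passed with array weights, 6099 (3909 adjusted) without the 2 libraries, 1092 to 4011 with 1 library left out, and 11 had an adjusted p under 0.05 in the fit of all 20 libraries, 9 with no filter and 8 with GC correction. After Ceapin-A7, 1595 passed, against 956 to 2529 with 1 library left out and 769 without PBS replicates 4 and 5. Causes were not tested.

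Single fold changes changed sign as follows, all of genes that had not passed. In OIR, *Cdc45* and *Rrm1* were −0.0041 and −0.012 with the FPKM as deposited, −0.010 and −0.018 as TPM, and −0.013 and −0.078 with GC correction, with and without the replicate block, which gave *Ccne2* −0.15 and *Ccna2* −0.0016. *Kif11* was 0.022 after quantile normalization and 0.0031 with array weights, which gave *Bub1b* −0.0035. Without the 2 libraries, *Mcm7*, *Ccnb1*, *Birc5* and *Kif11* were 0.022, 0.067, 0.033 and 0.022. With 1 library left out, *Rrm1* ranged from −0.020 to 0.043, *Ccna2* from −0.00022 to 0.12, *Cdc45* from −0.016 to 0.056, *Tk1* from −0.19 to 0.072, *Kif11* from −0.10 to 0.022, *Ccne2* from −0.032 to 0.057 and *Birc5* from −0.27 to 0.0085. After Ceapin-A7, TPM gave −0.011 for *Pcna*, −0.020 for *Ccne1* and −0.0075 for *Ccna2*, and array weights gave 0.052 for *Gins2* and −0.023 for *Cdk1*. Without PBS replicates 4 and 5 together, *Mcm3* was −0.075, *Gins2* 0.28, *Pcna* −0.0013, *Rrm1* −0.054, *Ccne1* −0.087, *Mki67* −0.020, *Ccna2* −0.031, *Cdk1* −0.32 and *Nusap1* −0.11. With 1 library left out, *Mcm6* ranged from −0.18 to 0.057, *Aurka* from −0.24 to 0.051, *Prc1* from −0.11 to 0.25, *Gins2* from −0.13 to 0.27, *Ccne1* from −0.090 to 0.12, *Cdk1* from −0.062 to 0.29, *Mcm3* from −0.032 to 0.35, *Rrm1* from −0.015 to 0.10 and *Pcna* from −0.0034 to 0.075.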

Other observations

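Genes that hold cells in or release them from G1 were compared in the same fits. In *Atf6*-/- OIR retinas, 17 of the 27 genes of this list (G1 cyclins and their kinases, the RB family, other E2Fs and CDK inhibitors) were lower and 10 higher, with a median log2 fold change of −0.096. Of these, 3 passed the unadjusted threshold as lower and 1 as higher, beside 5.81% and 6.94% of all genes. *Rb1*, the retinoblastoma protein that restrains E2F, was 13.9 in *Atf6*+/+ and 16.4 rescaled FPKM in *Atf6*-/- libraries with no overlap, as held for 1.11% of all genes as higher (log2 fold change 0.24 with a standard error of 0.063, limma adjusted p = 0.358). *Ccnd1*, cyclin D1, which is also abundant in Muller glia, was lower with a log2 fold change of −0.42, and *E2f8*, a repressive E2F, with −0.58.

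After Ceapin-A7, 18 of the 24 genes tested were lower, with a median of −0.061, and 3 passed, each lower, as did 5.31% of all genes. The CDK inhibitor *Cdkn2b* had the largest of these, with 1.24 after PBS and 0.411 rescaled FPKM after Ceapin-A7, and no overlap between the groups, as held for 0.688% of all genes as lower (log2 fold change −1.34 with a standard error of 0.27, limma adjusted p = 0.472). *Ccnd1* had a log2 fold change of −0.60 and the inhibitor *Cdkn2c* one of −0.26. The whole list summed to 298.4, 289.6, 278.5, 357.9 and 351 FPKM in PBS replicates 1 to 5, and to 279.6 to 299.6 FPKM after Ceapin-A7. PBS replicates 4 and 5, the libraries with low rod marker sums, thus lay above all others. The counts of this list were not repeated without them. *Ccnd1* was thus lower in both contrasts, with a limma adjusted p of 0.3615 in OIR and 0.4718 after Ceapin-A7. It is named because it was among the 3 genes of this list with the smallest p in each experiment. A shared cause was not tested.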
